A study of Mus musculus with 28 samples.

Results

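The 279.665-kb stretch of the mouse genome between the homeobox gene Six2 and the gene Srbd1 was described, on chromosome 17 from 85.70 Mb to position 85979664 in mm10. Its members were all restriction fragments with their midpoint in this interval that were read in any of 4 circular chromosome conformation capture (4C-seq) libraries. There were 531 such fragments, of 99194 fragments read anywhere in the 13 libraries analysed. In 4C-seq, chromatin is cut and religated, and everything joined to 1 chosen fragment, the viewpoint, is amplified and sequenced. The 4 libraries were a wild type (WT) and a del36 library from each of a pair of viewpoints, all from embryonic stem cells (ESC) of the mouse line E14Tg2a. The genotype del36 lacks the boundary of the topologically associating domains that separates Six3 from Six2, and the WT cells carry no such change. The labels call the cells 2i+LIF ESC, while the growth protocol names serum with LIF. They do not say whether del36 is a single clone. There was 1 library per viewpoint and genotype and no replicate, so every difference is between libraries, with no replicate check and no test.

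Six2 is a homeobox gene known for keeping kidney progenitors undifferentiated, and its neighbour Six3 for forebrain and eye development. Topologically associating domains are stretches of chromosome whose parts meet each other more often than they meet the rest, and a boundary is the place where contacts drop. The first viewpoint was the Six2 promoter, at chr17:85689020-85689800. The second was PE Six3, a poised enhancer of Six3, at chr17:85485041-85485766; poised enhancers are regulatory elements of developmental genes that are accessible but inactive in ESC. The stretch began 10.6 kb from the Six2 promoter viewpoint, on the side away from the deletion, and ended 290.3 kb from it. It lay 214.6 to 494.3 kb from PE Six3, across the boundary, or, at the nearest, 177.4 to 457.1 kb once the deleted sequence is taken off. It began 11.7 kb past the annotated span of Six2 and ended 5.00 kb before that of Srbd1, which encodes a protein with an S1 RNA-binding domain. The stretch holds no protein-coding gene in the RefSeq table of GRCm38.p6, the assembly of mm10, but it overlaps 6 long non-coding RNA genes, which cover 50.4% of it, so it is intergenic for protein-coding genes only.

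The fragments are set by NlaIII, which cuts at CATG, and the sequence shows this where fragments were read at gene starts. The following promoters, from RefSeq on GRCm38.p6 and 5′ to 3′ on the strand of the gene, are shown with each CATG in capitals. Six2 (chr17:85688205-85688504, minus strand) lies close to the first viewpoint. Gm41645 (chr17:85780453-85780752), Gm29418 (chr17:85799685-85799984) and Gm30117 (chr17:85928552-85928851), all on the minus strand, are long non-coding RNA genes whose starts lie in the stretch.
Six2: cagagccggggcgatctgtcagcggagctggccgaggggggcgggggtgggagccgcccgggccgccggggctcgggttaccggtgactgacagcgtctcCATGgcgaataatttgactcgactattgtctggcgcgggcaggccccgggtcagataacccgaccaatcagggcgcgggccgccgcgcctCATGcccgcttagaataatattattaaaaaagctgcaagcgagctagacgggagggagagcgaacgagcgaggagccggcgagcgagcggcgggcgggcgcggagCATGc
Gm41645: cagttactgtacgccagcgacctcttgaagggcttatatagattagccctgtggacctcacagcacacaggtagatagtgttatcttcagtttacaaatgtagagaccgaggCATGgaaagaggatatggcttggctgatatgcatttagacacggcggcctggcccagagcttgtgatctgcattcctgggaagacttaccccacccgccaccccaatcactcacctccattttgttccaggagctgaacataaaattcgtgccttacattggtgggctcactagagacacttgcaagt
Gm29418: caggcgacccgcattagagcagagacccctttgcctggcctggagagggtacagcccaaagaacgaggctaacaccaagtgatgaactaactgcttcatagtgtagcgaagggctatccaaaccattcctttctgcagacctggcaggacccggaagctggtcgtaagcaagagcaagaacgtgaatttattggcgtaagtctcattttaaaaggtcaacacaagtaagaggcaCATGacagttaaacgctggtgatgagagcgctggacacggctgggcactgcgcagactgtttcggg
Gm30117: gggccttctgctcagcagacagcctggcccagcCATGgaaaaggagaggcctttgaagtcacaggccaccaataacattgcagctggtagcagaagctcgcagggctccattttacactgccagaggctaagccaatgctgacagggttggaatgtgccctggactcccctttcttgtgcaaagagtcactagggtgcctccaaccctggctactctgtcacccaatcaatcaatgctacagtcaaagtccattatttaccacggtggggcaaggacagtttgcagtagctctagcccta

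All 11 fragment ends that fell inside the promoters of Six2 and the 6 non-coding genes lay directly beside a CATG. The motif CATG, which reads the same on both strands, was present in 61.1% of 32851 promoters of this length (300 bases). At Gm29418 the CATG at 85799747 separates a pair of fragments that were read. The fragment of 719 bases before it, at 85799028 to 85799746, had 705 reads from the Six2 promoter in WT and 0 in del36, and 475 and 780 from PE Six3. The fragment of 2192 bases after it had 208 reads in Six2 promoter del36 and 0 in the other 3 libraries. At Gm30117 the fragment of 545 bases had 143 reads in PE Six3 WT only, and the neighbouring one of 272 bases had 34 in PE Six3 del36 only. At Gm41645 a fragment of 226 bases had 273 reads in Six2 promoter WT and 0 in the others. The Six2 promoter had 37 CpG dinucleotides and 67.3% G and C, with a CpG ratio (observed over expected from the base content) of 1.13, and 1.35% of promoters had a higher ratio. The starts in the stretch had less: Gm29418 had 13 CpG with a ratio of 0.65, Gm4718 9 with 0.60, Gm41645 7 with 0.38, Gm30117 2 with 0.094 and Gm41644 1 with 0.054, against a median ratio of 0.38 over all promoters.

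The libraries held 6169568 reads (Six2 promoter WT), 6056180 (Six2 promoter del36), 7730539 (PE Six3 WT) and 2238911 (PE Six3 del36). Signal is given as a percentage of local reads, counted up to 1 Mb to either side of the viewpoint without the nearest 10 kb. Local reads numbered 165248 (WT) and 238250 (del36) for the Six2 promoter, and 1218764 and 355383 for PE Six3. Intervals are 95% Wilson intervals for a share and exact conditional intervals for a log2 ratio. PCR copies cannot be told from separate molecules here, so the intervals cover counting error only. The longest stretch without reads in PE Six3 del36, taken as the deleted sequence, was chr17:85629635-85666796, 37.2 kb long and outside the stretch described; the annotated span of Six2 begins inside it, at 85662736. Six2 promoter del36 had 796 reads there, 786 of them on the outermost fragment at either end and 10 on 5 fragments between. In 9 libraries of viewpoints on other chromosomes, from ESC or anterior neural progenitor cells (AntNPC), the stretch had 0 to 471 reads, on 0 to 3 fragments each.

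The stretch took a smaller share of the Six2 promoter signal and a larger share of the PE Six3 signal in del36 than in WT. With Six2 as viewpoint, WT had 28.0% of its local reads here (27.8% to 28.2%), and del36 had 19.6% (19.4% to 19.8%). With PE Six3 as viewpoint, WT had 8.94% (8.89% to 8.99%), and del36 had 14.9% (14.8% to 15.1%). The log2 ratio of del36 over WT was -0.51 (-0.53 to -0.50) for the first viewpoint and 0.74 (0.73 to 0.76) for the second. The viewpoints share no library, and the difference between their ratios was not tested.

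The direction from the Six2 promoter depended on the scale. On the deposited scale, in RPM (reads scaled to the library's total), the stretch had 7502 RPM in WT and 7710 RPM in del36, a log2 ratio of 0.04. As a share of all reads of chromosome 17 the ratio was 0.02. Chromosome 17 held 88.3% of all reads in WT and 89.5% in del36, so this scale is close to the deposited one. Local signal as a whole was larger in the del36 library, at 39340 RPM against 26784 RPM, a log2 ratio of 0.55, by which every Six2 promoter ratio is higher on the deposited scale. From PE Six3 the direction was the same on both scales: the stretch had 14099 RPM in WT and 23710 RPM in del36, with local signal at 157660 and 158730 RPM. In del36 the stretch is also up to 37.2 kb nearer to PE Six3 along the chromosome, and the loss of the boundary and the shorter distance cannot be told apart.

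Other zones of the local range differed from the stretch. For the Six2 promoter, signal left of the deleted sequence, where Six3 and PE Six3 lie, was 37.6% in WT and 52.9% in del36, and the deleted sequence itself held 8.16% in WT and 0.334% in del36. Beyond the stretch, over Srbd1 and the protein kinase C gene Prkce, the share was 21.7% in WT and 22.1% in del36, a log2 ratio of 0.03 against -0.51 in the stretch. From PE Six3, signal left of the deleted sequence was 77.7% and 70.5%. Beyond the stretch it was 7.49% and 10.4%, a log2 ratio of 0.47 against 0.74 in the stretch. The mirror interval lies on the opposite side of PE Six3, as far from it as the stretch is in WT. It is left in place by the deletion, and WT had 14.0% there and del36 13.6%. In WT the stretch was thus below that mirror interval, and in del36 above it, when seen from PE Six3. In del36 the stretch lay as near as 177.4 to 457.1 kb, but the mirror interval 214.6 to 494.3 kb away. Distance is therefore matched in WT only. The corresponding mirror interval of the Six2 promoter contains the deleted sequence and PE Six3, and held 36.8% in WT and 38.1% in del36.

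**Figure D1:**
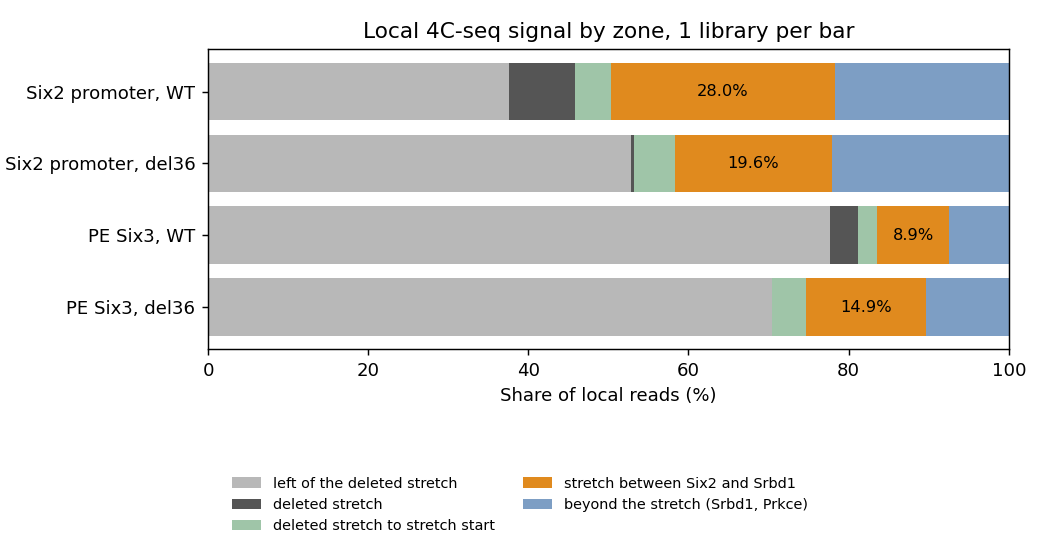
Shares of local reads (percent, horizontal axis) in 5 zones of the range for the 4 libraries, 1 bar per library, with the share of the stretch printed. The stretch went from 28.0% in WT to 19.6% in del36 for the Six2 promoter, and from 8.94% to 14.9% for PE Six3.

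In windows of 50 kb, signal from the Six2 promoter was highest next to Six2 in both libraries, and del36 was lower by most in windows 4 and 6. Counted from the Six2 side (the last window is 29.7 kb long), the WT shares were 6.74%, 4.56%, 5.17%, 4.79%, 3.56% and 3.20%. The del36 shares in the same order were 5.16%, 4.51%, 4.28%, 2.11%, 2.32% and 1.22%. All 6 windows were lower in del36, and 2 of them by 2-fold or more; of 31 windows of 50 kb outside the stretch, 6.45% were lower by that much and 32.3% higher. Window 4, chr17:85850000-85899999, was at a log2 ratio of -1.19 (-1.24 to -1.13) and window 6, chr17:85950000-85979664, at -1.38 (-1.45 to -1.32). Window 2, chr17:85750000-85799999, was at -0.01 (-0.06 to 0.03), an interval that includes 0. In window 5 a single fragment, at 85937175 to 85937251, gave 36.0% of the WT reads (2116, against 0 in del36); the window's ratio was -0.62, and 0.02 without the tallest fragment of each library. On the deposited scale, windows 4 and 6 were at -0.63 and -0.83, window 5 at -0.06, and windows 1 to 3 at 0.17, 0.54 and 0.28, so the direction of windows 1 to 3 also depended on the scale.

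Seen from PE Six3, the same windows differed in another order. WT shares were 1.68%, 0.446%, 2.10%, 2.40%, 1.83% and 0.490%, and del36 shares 3.75%, 2.79%, 1.87%, 2.91%, 1.97% and 1.66%. Of the 6 windows, 5 were higher in del36, 3 of them by 2-fold or more; of 30 windows of 50 kb outside the stretch, 20.0% were higher by that much and 16.7% lower. Window 2 was the furthest apart, at 2.65 (2.60 to 2.69), then window 6 at 1.76 (1.71 to 1.81) and window 1, which ends at 85749999, at 1.16 (1.12 to 1.19). Window 3, chr17:85800000-85849999, was lower, at -0.17 (-0.20 to -0.13). Windows 4 and 5 were at 0.28 and 0.11, and at -0.01 and 0.80 without the tallest fragments. As a share of local reads on the side of the stretch they were at -0.12 and -0.29, so their direction depended on the measure. In WT, from PE Six3, the nearest window was not the highest: windows 3, 4 and 5 each held more than window 1, and window 2 held the least. In del36 window 1 held the most.

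No 50-kb window was past 2-fold the same way from both viewpoints. Window 6 was past 2-fold in opposite directions, lower from the Six2 promoter and higher from PE Six3. Window 2 had a ratio near 0 for the Six2 promoter and of 2.65 for PE Six3. Window 3 was lower from both, by less than 2-fold, but was at 0.28 for the Six2 promoter on the deposited scale and at 0.02 for PE Six3 as a share of chromosome 17. The position by which 50% of the reads in the stretch were reached, counted from its start, was 117.2 kb in Six2 promoter WT and 102.1 kb in del36. From PE Six3 it was 164.0 kb in WT and 118.1 kb in del36, so in both pairs the del36 signal lay nearer to Six2. The first 100 kb held 23.8% of the stretch's reads in PE Six3 WT and 43.7% in del36, and 40.3% and 49.3% from the Six2 promoter.

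**Figure D2:**
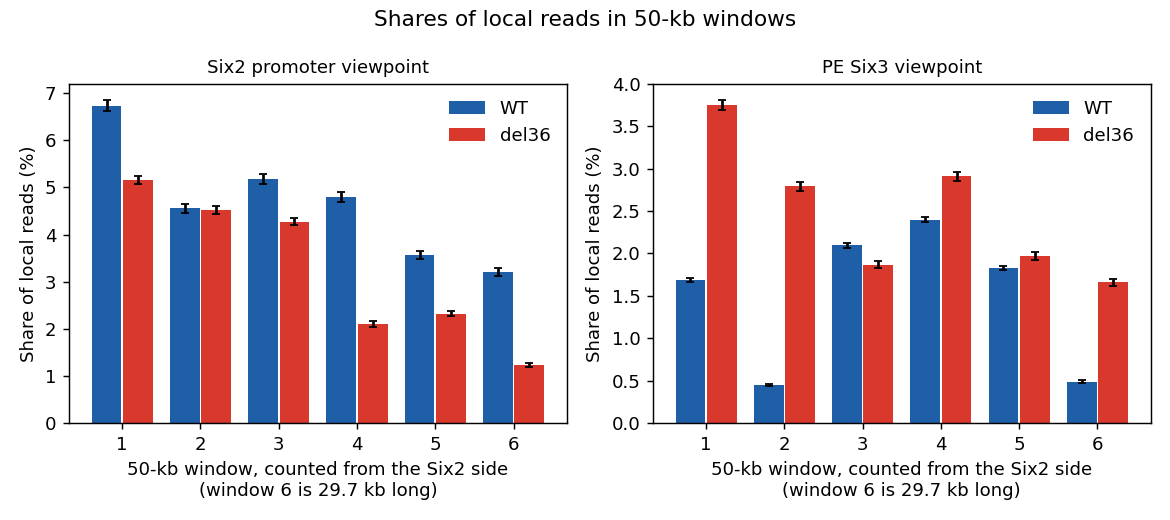
Shares of local reads (percent) in the 6 windows of 50 kb, for the Six2 promoter (left) and PE Six3 (right), WT and del36; bars are single libraries and error bars 95% Wilson intervals for counting error. From the Six2 promoter no del36 bar is above its WT bar, and from PE Six3 window 3 is where del36 is below WT.

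Windows of 10 kb, 28 in all and numbered from the Six2 side, varied far more than the counting intervals. From the Six2 promoter in WT, shares ran from 0.00242% to 2.98% with a median of 0.789%, and in del36 from 0.0928% to 1.33% with a median of 0.663%. The windows with most signal in WT were window 12 (chr17:85810000-85819999, in Gm4718) at 2.98%, window 1 (to 85709999, in CJ186046Rik) at 2.59% and window 27 (chr17:85960000-85969999, outside any annotated gene) at 2.19%. In del36 these held 1.16%, 1.32% and 0.221%. The windows with most signal in del36 were window 10 (chr17:85790000-85799999, with Gm29418) at 1.33%, window 1 at 1.32% and window 9 (chr17:85780000-85789999) at 1.23%, which in WT held 1.16%, 2.59% and 1.10%. Window 1 was thus among the highest in both libraries, and windows 9 and 10 had log2 ratios of 0.16 and 0.20.

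Of the 28 windows, 7 were lower in del36 by 2-fold or more from the Six2 promoter and 3 (10.7%) higher. Among the 154 windows of the range outside the stretch with at least 10 reads in either library, 23.4% were lower by that much and 44.2% higher; over all 182 windows it was 23.6% and 39.0%. By local shares the count of lower windows was near the background, and that of higher windows below it. The balance turned with the scale: 8 windows were higher and 4 lower on the deposited scale, and 8 and 5 as a share of chromosome 17. The median log2 ratio was -0.19 in the stretch and 0.34 over all windows, with an SD between windows of 2.41 and 3.86. The lowest ratios were those of window 27 at -3.31 (-3.45 to -3.18), window 18 (chr17:85870000-85879999, in Gm30117) at -3.20 (-3.41 to -3.00) and window 16 (chr17:85850000-85859999) at -2.76 (-2.88 to -2.64). The highest were window 3 (chr17:85720000-85729999) at 8.62 and window 14 (chr17:85830000-85839999) at 5.84, then window 23 (chr17:85920000-85929999) at 1.85 (1.59 to 2.12). The ratios of windows 3 and 14 rest on WT counts of 4 and 22 reads, against 2276 and 1812 in del36. With the window borders moved by 5 kb, 9 windows were higher by 2-fold in place of 3.

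From PE Six3, 14 of the 28 windows (50.0%) were higher in del36 by 2-fold or more and 4 (14.3%) lower. Outside the stretch, 32.5% of 160 windows were higher and 26.9% lower. Counted over all 188 windows, 66 windows (35.1%) were higher and 47 windows were lower. The median log2 ratio was 1.03 in the stretch and 0.33 over the range, with SDs between windows of 2.49 and 3.40. In WT, shares ran from 0.000574% to 0.972% with a median of 0.299%, and in del36 from 0.0394% to 1.27% with a median of 0.484%. The highest windows in WT were window 18 at 0.972%, window 24 (chr17:85930000-85939999) at 0.916% and window 22 (chr17:85910000-85919999) at 0.722%. In del36 these held 0.418%, 0.698% and 0.522%. The WT reads of window 18 lay on 2 fragments. The highest in del36 were window 7 (chr17:85760000-85769999, at the ends of Gm41644 and Gm41645) at 1.27%, window 12 at 1.15% and window 10 at 1.06%, and in WT these held 0.280%, 0.582% and 0.122%.

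The largest ratios from PE Six3 lay between 70 and 90 kb into the stretch. Window 9 was at 8.42 (7.37 to 9.74), on 7 WT reads and 698 in del36, and window 8 (chr17:85770000-85779999, in Gm41645) at 6.64 (6.10 to 7.24), on 28 and 815 reads. Window 5 (chr17:85740000-85749999) followed at 3.83 (3.70 to 3.96), on 582 and 2408 reads. In WT, 99.7% of the reads of window 5 lay on 1 fragment, which had 0 reads in PE Six3 del36. The lowest were window 15 (chr17:85840000-85849999) at -3.74 (-3.99 to -3.50), window 17 (chr17:85860000-85869999) at -2.31 (-2.46 to -2.16) and window 11 (chr17:85800000-85809999) at -1.24 (-1.36 to -1.12). In WT, 96.8% of the reads of window 15 lay on 1 fragment. From the Six2 promoter, windows 8 and 9 were at 0.49 and 0.16, so by local shares only the PE Six3 pair was past 2-fold there. On the deposited scale every Six2 promoter ratio is higher by 0.55, and Gm41645, which spans window 8, was at 1.04.

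**Figure D3:**
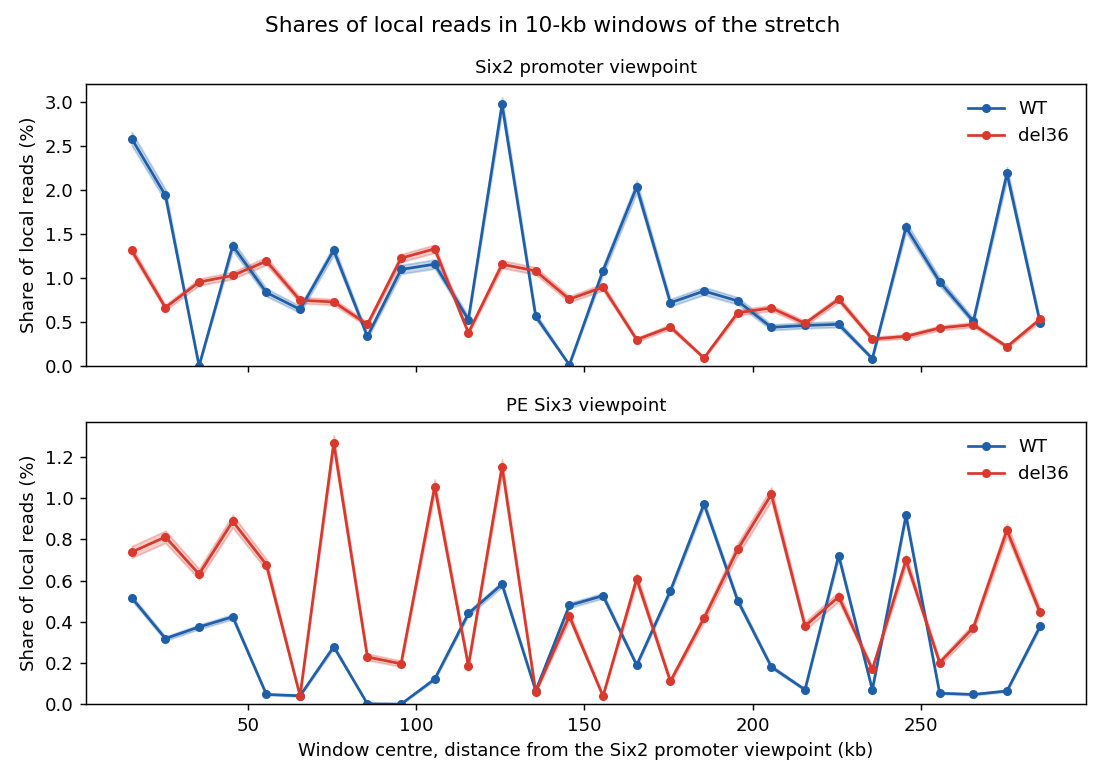
Shares of local reads (percent) in 28 windows of 10 kb against the distance of the window centre from the Six2 promoter viewpoint (kb), for the Six2 promoter (top) and PE Six3 (bottom); points are single libraries and bands 95% Wilson intervals. Six2 promoter WT runs from 0.00242% in window 3 to 2.98% in window 12.

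The viewpoints agreed in 2 of 28 windows, 7.14%, when agreement means 2-fold or more the same way. Among the 134 windows outside the stretch in range of both viewpoints, 20.1% did, 14.2% higher from both and 5.97% lower; over all 162 such windows it was 17.9%. Window 18 was lower in del36 from both: 0.853% in WT and 0.0928% in del36 for the Six2 promoter viewpoint, against 0.972% and 0.418% for PE Six3, a log2 ratio of -3.20 and -1.22. It lies inside Gm30117. In PE Six3 WT the reads of window 18 lay on 2 fragments, with 7270 and 4576 reads, against 1 and 0 in PE Six3 del36. The second of these fragments, at 85869987 to 85870047, crosses the border of the window. Window 23 was higher from both: 0.0853% and 0.308% for the Six2 promoter viewpoint, against 0.0703% and 0.169% for PE Six3, ratios of 1.85 and 1.26. It holds the start of Gm30117, whose promoter is printed above. In each of these windows only 1 of the 14 fragments was read from both viewpoints.

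In 4 windows the viewpoints were past 2-fold in opposite directions, 14.3% against 17.2% outside the stretch. All of these were lower from the Six2 promoter and higher from PE Six3. Window 27 was at -3.31 and 3.71, window 16 at -2.76 and 1.68, window 2 (chr17:85710000-85719999, in CJ186046Rik) at -1.55 and 1.35, and window 25 (chr17:85940000-85949999) at -1.15 and 1.92. In 16 windows 1 viewpoint was past 2-fold and the other was not, and 6 were within 2-fold from both. The sign of the ratio was the same in 14 of 28 windows. The count of opposite windows was 2 on the deposited scale and 7 with the window borders moved by 5 kb. The count of agreeing windows was not stable either: it was 5 with the window borders moved by 5 kb, 5 on the deposited scale and 0 when each fragment was counted once.

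**Figure D4:**
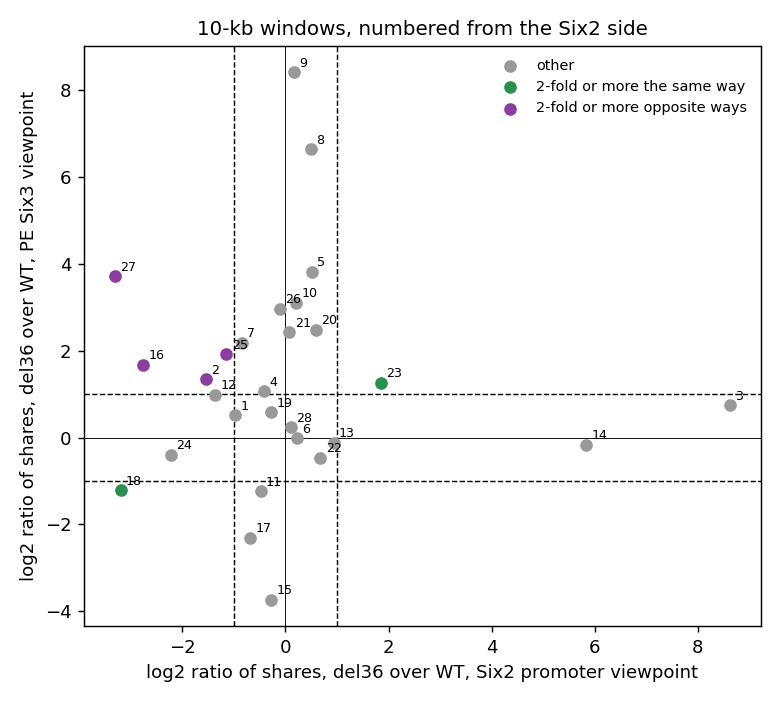
log2 ratio of shares, del36 over WT, from the Six2 promoter (horizontal axis) and from PE Six3 (vertical axis) for the 28 numbered windows of 10 kb; dashed lines mark 2-fold. Windows 18 and 23 lie past 2-fold the same way, and windows 2, 16, 25 and 27 in opposite ways.

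Levels, as opposed to ratios, agreed in a few windows. Windows 1, 2, 4 and 12 were above the median of the stretch in all 4 libraries, and windows 8, 21, 23 and 26 at or below it in all 4. In PE Six3 WT, however, 1 fragment held 86.3%, 93.0%, 69.5% and 94.8% of the reads of windows 1, 2, 4 and 12. In Six2 promoter WT, 80.1% of the reads of window 4 lay on 1 fragment. By the split at its own median, each library has 14 windows above. In WT 7 windows were above from both viewpoints and 7 at or below, and in del36 9 and 9. Whether this is more than the split alone gives was not tested. Window 4 (chr17:85730000-85739999) held 1.37% and 1.03% for the Six2 promoter viewpoint, against 0.424% and 0.888% for PE Six3. Window 12 held 2.98% and 1.16%, and 0.582% and 1.15%. Of the low windows, window 26 (chr17:85950000-85959999) held 0.510% and 0.471%, and 0.0475% and 0.371%. Over the 28 windows, Spearman's rho between viewpoints was 0.19 in WT and 0.22 in del36, and between WT and del36 it was 0.12 for Six2 and 0.22 for PE Six3. The windows share their restriction sites and neighbours, so these are descriptions. In windows of 50 kb the shares of Six2 promoter WT and del36 had a rho of 0.71 over 6 windows, and those of PE Six3 WT and del36 0.14. Spearman's rho between share and position over the 28 windows was -0.63 in Six2 promoter del36 and -0.21 in Six2 promoter WT.

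The 6 non-coding genes differed in how their signal compared between libraries. CJ186046Rik starts beside the Six2 promoter, and its 27.0 kb in the stretch had shares of 4.53% (WT) and 2.62% (del36) for the Six2 promoter viewpoint, against 1.21% and 2.18% for PE Six3. Gm41644, 11.1 kb long, held 1.73% and 0.208% for the Six2 promoter viewpoint, against 0.0661% and 1.09% for PE Six3. Its log2 ratios were -3.06 and 4.04, the furthest apart of the 6 genes. Its neighbour Gm41645 was higher in del36 from both, at 0.49 and 6.64, the second on 28 WT reads.

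Gm29418, a gene of 3.57 kb, held 0.502% and 0.305% for the Six2 promoter viewpoint, against 0.0530% and 0.691% for PE Six3. Gm4718, which starts beside it on the other strand, held 3.52% and 1.84%, and 1.07% and 1.36%. Gm30117, the longest at 66.4 kb, differed least on the scale of local shares: 3.65% and 3.34% for the Six2 promoter viewpoint, against 3.06% and 3.23% for PE Six3, log2 ratios of -0.13 and 0.08. On the deposited scale its ratio for the Six2 promoter was 0.43, so its direction there turned. Single windows of 10 kb in it differed more: windows 17, 18 and 20 were at -0.69, -3.20 and 0.58 seen from Six2, and at -2.31, -1.22 and 2.49 from PE Six3. By local shares 5 of the 6 genes were lower in del36 from the Six2 promoter, 1 of them by 2-fold, and all 6 were higher from PE Six3, 3 of them by 2-fold. Outside the stretch, 12.5% of 16 genes in range with at least 10 reads in either library were lower by 2-fold from the Six2 promoter and 31.2% higher, and of 21 genes in range of PE Six3, 19.0% were higher and 14.3% lower. On the deposited scale 4 stayed lower from the Six2 promoter, with Gm41644 at -2.51, while Gm41645 was at 1.04. Together the genes held 51.0% and 44.8% of the stretch's reads for the Six2 promoter viewpoint, against 61.1% and 58.7% for PE Six3, on 50.4% of its length.

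Most fragments were read in a single library. Of the 531 fragments, 344 were read in 1 library, 149 in 2, 32 in 3 and 6 in all 4. These are 64.8%, 28.1%, 6.03% and 1.13%, and among 2211 fragments in the rest of the range that the viewpoints have in common the percentages were 64.3%, 26.5%, 6.56% and 2.58%. Six2 promoter WT and del36 read 191 and 224 fragments and shared 88, which is 46.1% and 39.3% of each list. PE Six3 WT and del36 read 117 and 230 and shared 43, 36.8% and 18.7%. In the rest of the common range the shared fragments were 54.4% and 41.3% of the lists of the Six2 promoter pair, and 49.8% and 33.5% of those of the PE Six3 pair. Between viewpoints, the WT libraries shared 24 fragments (12.6% of the Six2 promoter list and 20.5% of the PE Six3 list) and the del36 libraries 56 (24.3% of the PE Six3 list). In the rest these were 25.1% and 13.9% in WT, and 37.1% and 18.2% in del36. These counts take any read. With at least 10 reads in both libraries, the Six2 promoter pair shared 21 of its 88 fragments and the PE Six3 pair 13 of its 43. Between viewpoints it was 12 of the 24 in WT and 36 of the 56 in del36. The same count for the rest is not given here. Fragments read from both viewpoints, 100 in all, were more common near Six2: they were 32 of 115 fragments in the first 50-kb window, then 20 of 90, 22 of 88, 11 of 96, 10 of 92 and, in the last, 5 of 50.

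Fragments with many reads were often absent from the partner library too. Of 90 fragments with at least 100 reads in Six2 promoter WT, 56 (62.2%) had no read in del36, and of 114 such fragments in del36, 63 (55.3%) had none in WT. From PE Six3 it was 59 of 73 (80.8%) and 71 of 99 (71.7%). In the rest of the local range these percentages were 58.7% and 49.2% for the Six2 promoter viewpoint, against 55.9% and 56.3% for PE Six3. The PE Six3 WT library had few fragments with many reads each, 932 per fragment on average against 231 in del36. Its local reads were 1218764 against 355383, and in the rest of the local range it had 1157 per fragment against 220. The cut of 100 reads was not scaled to depth. In PE Six3 WT the 10 tallest fragments held 53.5% of the reads in the stretch. In the other 3 libraries the 10 tallest held 19.9% to 29.4%. What part this has in the 10-kb ratios was not tested.

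The tallest fragment of each library differed too. In Six2 promoter WT it was the fragment at 85937175 to 85937251, with 2116 reads and 0 in the other 3 libraries. In Six2 promoter del36 it was 85829273 to 85829365, with 1286 reads and 0 in WT. In PE Six3 WT it was 85933361 to 85933935, with 8569 reads and 306 in del36. In PE Six3 del36 it was 85858036 to 85858298, with 1840 reads, 2 in PE Six3 WT, and 632 and 467 in the Six2 promoter libraries. That fragment, in window 16, is 1 of the 6 read in all 4 libraries. Another of the 6, at 85702035 to 85702312, had 845 and 1 reads in the Six2 promoter libraries, and 491 and 569 in those of PE Six3.

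In 3 of the 4 libraries, most fragments with a single read had many reads in the partner library. Six2 promoter WT had 36 single-read fragments, of which 29 had at least 100 reads in del36. For Six2 promoter del36 it was 17 of 26, for PE Six3 WT 14 of 22, and for PE Six3 del36 3 of 11. As a base, Six2 promoter WT read 191 fragments in all. Of the 114 fragments with at least 100 reads in del36, 63 were not among them. The same count for the rest of the range is not given here. Of the 4 WT reads of window 3, 75.0% lay on 1 fragment. Fragment lengths ran from 19 to 2192 bases with a median of 197 bases; those read from both viewpoints had a median of 235 bases, and those read from the Six2 promoter alone 181 bases and from PE Six3 alone 188.5 bases.

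**Figure D5:**
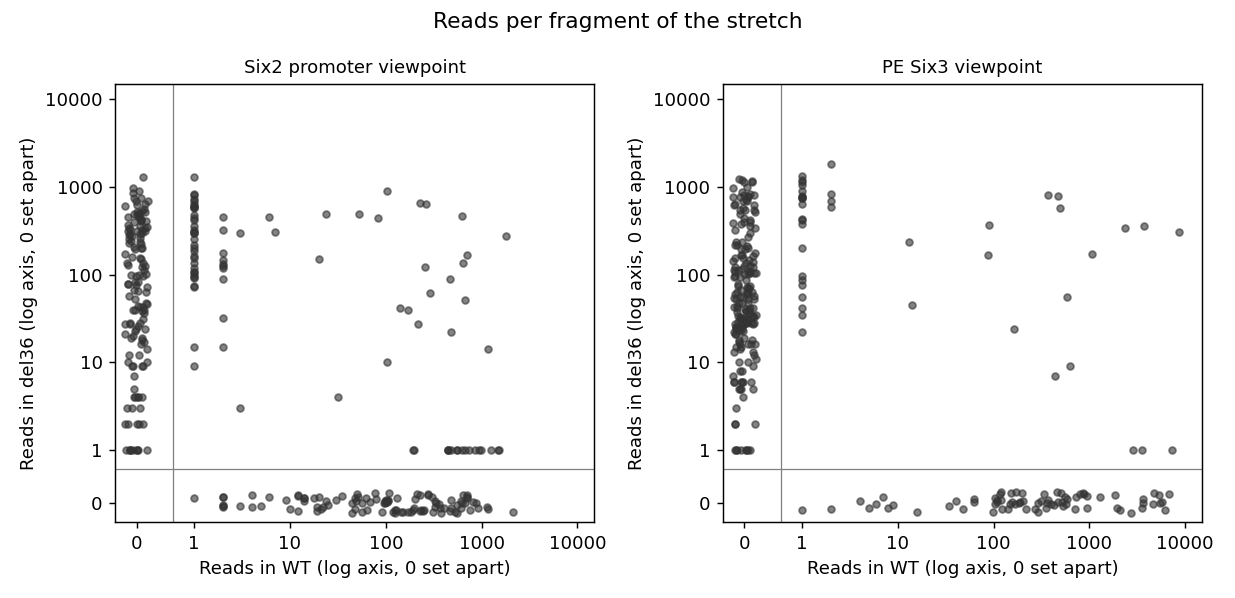
Reads per fragment of the stretch in WT (horizontal) and del36 (vertical), on log axes with 0 set apart behind a line and spread at random there, for the Six2 promoter (left) and PE Six3 (right). Most points lie on a border: 56 of 90 fragments with at least 100 reads in Six2 promoter WT had 0 in del36, and 59 of 73 from PE Six3.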

How the data were processed

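The authors deposited, for each of the 13 libraries analysed, the RPM value (reads scaled to the library's total) of each restriction fragment. The submitters' processing notes name HISAT2 and mm10, without a version or filters. All RPM values were whole multiples of the smallest value of their library, within a tolerance of 0.1 (100% of values), so reads were recovered by division. A count test on them was not run, since each condition has 1 library. The viewpoint was the fragment with most reads. Groups were taken from sample titles. Bed starts were raised by 1. Windows were counted from the start of the stretch. A window or region counted as different at 2-fold or more, and 10-kb windows needed at least 10 reads in either library; in the wider range a library without reads was set at 3 reads, and windows touching the deleted sequence were left out. Background call rates are for windows of 10 and 50 kb, and for genes lying wholly in range, outside the stretch, a choice made after the values were seen; rates over all 10-kb windows stand beside some of them. Named windows and fragments follow a rule: the 3 highest per library, the 3 largest ratios each way, those past 2-fold from both viewpoints, all 50-kb windows, those with genes, and the tallest fragments; others named were chosen after their values were seen. The members and lists were chosen with earlier results of these data known. Window calls were tested on simulated data. Python 3.11.15, numpy 2.4.6, pandas 2.3.3, scipy 1.17.1 and matplotlib 3.10.9 were used. Of 28 samples listed, 15 were not analysed here.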

Additional observations from a re-analysis of the deposited data

Results flagged for a closer look

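The stretch differed in opposite directions: its log2 ratio of del36 over WT was -0.515 for the Six2 promoter viewpoint and 0.741 for that at PE Six3. With 1 library per condition, the difference was not tested.

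Some libraries of viewpoints on other chromosomes had reads in the stretch above those of the WT library of the same viewpoint. The ESC library with the TFBS insert at Gria1 had 471 reads on the fragment at 85813299 to 85813448, against 8 in WT and 1 each in CGI and TFBS+CGI; none of the 4 libraries of the Six2 promoter and PE Six3 read this fragment. The Gata6 promoter library with the CGI insert from anterior neural progenitor cells (AntNPC), a cell type not used in the comparisons above, had 96 reads at 85976729 to 85977040 and 22 at 85864453 to 85864484, against 0 in the WT library of AntNPC. It also had 8 reads at 85933361 to 85933935, against 2 in WT. The fragments at 85976729 and 85933361 had 3583 and 8569 reads in PE Six3 WT, and the second was the tallest of the stretch there.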

How the results depend on the processing

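The alternatives were the deposited RPM, the share of all reads of chromosome 17, the share of local reads on the side of the stretch, 25 kb left out around the viewpoint, a range of 500 kb, capped fragments, the tallest fragments left out, fragments of at least 10 reads, and each fragment counted once; for windows also a shifted grid, 4-fold, and at least 50 reads. From the Six2 promoter the log2 ratio of the stretch was -0.51; it turned to 0.040 on the deposited scale and 0.022 as a share of chromosome 17, and was -0.27 by side, -0.42 with 500 kb, -0.40 capped and -0.055 with fragments counted once. From PE Six3 it was 0.74 and stayed above 0 in all 9 alternatives: 0.92 as a share of chromosome 17, 0.35 by side, 0.69 with 25 kb left out, 0.76 capped, 0.81 without the tallest fragments and 0.40 with fragments counted once. Windows higher by 2-fold from the Six2 promoter, 3, were 8 on the deposited scale, 8 by chromosome 17 and 9 on the shifted grid. Windows lower, 7, were 4 on the deposited scale, 1 with fragments counted once and 4 at 4-fold. From PE Six3, windows higher, 14, were 8 with fragments counted once and 9 at 4-fold, and windows lower, 4, were 0 and 2. Agreeing windows, 2, were 5 on the deposited scale, by chromosome 17 and on the shifted grid, 1 by side, and 0 with fragments counted once or at 4-fold. Opposite windows, 4, recomputed after the values were seen, were 2 on the deposited scale, 2 by side, 1 with fragments counted once, 7 on the shifted grid and 1 at 4-fold. Of 108 recomputed 50-kb ratios, 89 kept their sign, and of the 5 ratios past 2-fold none turned. The cause of these changes was not tested.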
